A study of Drosophila melanogaster with 2 samples.

Results

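The protein CG31441 had 502 peak summits in introns of fly genes, far from any annotated transcription start of a protein-coding gene. These deep intronic summits were chosen from the conservative peak list of the whole series, which keeps peaks whose rank repeated between replicates (irreproducible discovery rate, IDR). A summit, the position of the peak's highest point, was kept if it lay inside a protein-coding transcript, in no annotated coding or untranslated exon, and more than 10000 bp from the nearest protein-coding transcription start site (TSS). The 502 made up 7.75% of the 6476 summits on the nuclear chromosome arms and lay in 224 host genes. Bases that meet the same rule made up 14.8% of these arms. Deep introns held 24.7 members per Mb, against 47.1 nuclear summits per Mb over the arms as a whole. Applied to each replicate's own list, the same rule took 309 summits of replicate 1 (6.24%) and 401 of replicate 2 (7.35%) (mean 6.80% ± 0.78, SD, n = 2). Within the list the choice used position only, but the list itself rests on signal ranks.

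The study mapped CG31441 in Drosophila melanogaster by ChIP-seq, which sequences the DNA that comes down with a protein. Both biological replicates belonged to 1 group, namely whole embryos aged 0 to 16 hours of the transgenic strain CG31441-GFP, which makes CG31441 fused to eGFP, and the fusion was captured with an antibody against GFP. The labels give 1 donor entry for both replicates, so a single transgenic line stands behind the data. Whole embryos mix all cell types and 16 hours of development, so a peak cannot be placed in a tissue or stage. Control libraries were not analysed here. With 1 group and 2 replicates the design allows no test over samples, and every comparison below is a description of positions in 1 genome. The files give a signal for each peak, set by the authors' processing on a scale that is not stated, and no read counts, so depth is unknown.

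CG31441 is a predicted zinc-finger protein, a class of which many members bind DNA. Introns of developmental genes in flies are known to carry enhancers, stretches that switch a promoter on from a distance in chosen cells. Enhancers act through bound transcription factors, and the gene that holds an enhancer in its intron is often, but not always, the gene that it controls.

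The sequences under the strongest deep intronic summits were poor in G and C, and many held the 6 letters TATAAA, the core of the TATA box of promoters. They are shown because these features, described with their counts further on, differed most from the sequence beside the summits. Each line holds 30 bases of the plus strand of dm6, 5′ to 3′, from the RefSeq genome of that assembly. The first 8 are the members with the highest signal, on the arms shown here, with TATAAA within 50 bp of the summit, read around the match nearest to the summit. Capitals mark TATAAA, or TTTATA where the letters lie on the other strand.
osa, chr3R:17700572-17700601: tcagactgcttcTATAAAaatatattagtt
osa, chr3R:17704348-17704377: ttgataggatatTATAAAgaaccattacct
Sema1a, chr2L:8575111-8575140: cgcatctgaatgTATAAAgttgtatggtgt
Antp and CG46458, chr3R:6903410-6903439: aggtaatatcgaTTTATAtgttatatattc
Notch (N), chrX:3162546-3162575: atgtcccttaaaTTTATAttacaactgttt
CG42342, chr3R:16524340-16524369: gaattaagctgtTTTATAgtaaaaaaaaac
CG6959, chr3R:11851397-11851426: ctaaagtgaattTTTATAccaattacaatt
hth, chr3R:10537237-10537266: aactatttttatTTTATAttttcattgcca
The next 4 are the strongest members on the same arms without the letters, read around the summit itself.
osp, chr2L:14674834-14674863: tatgttaataaaatactacacttaaatatt
Drak, chrX:11528481-11528510: aacataaactaaagcaataatttcaaaaac
fz, chr3L:14304050-14304079: cggtttcattgaaacattgaaattgataca
CG6959, chr3R:11849808-11849837: catatccaactggtttgtatagttcgagaa
The first osa summit, at chr3R:17700569, held the letters 3 times within 50 bp. Within 50 bp of it G and C made up 18.8%, against 52.5% of flanks of the same length centred 400 bp away on both sides. The osp summit had none of the letters, and around it G and C made up 19.8%, against 32.7% in its flanks.

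The strongest of all was an intronic summit of osa, which encodes a subunit of the Brahma chromatin remodelling complex. It had a signal of 654.7 in the series list, with 369.7 in the ranked list of replicate 1 and 293.2 in that of replicate 2. The next osa summit had 583.9, with 312.5 in replicate 1 and 271.2 in replicate 2. Both lay in the same intron of 8067 bp, and the nearest TSS of osa itself was 17781 bp from the first and 13946 bp from the second. Next came the first intron of osp with 557.6, where replicate 1 had 321.5 and replicate 2 had 239.6. Of the 10 strongest members, 3 lay in sbb, which encodes the nuclear zinc-finger protein Scribbler, with signals of 488.8, 465.8 and 444.3. The others of the 10 were in Sema1a, a transmembrane semaphorin of axon guidance (470.3), in Antp, a Hox gene, where the overlapping gene CG46458 also spans the site (465.5), in Drak, a protein kinase (464.7), and in fz, the Frizzled receptor of Wnt signalling and planar polarity (463.7). All 10 were covered by thresholded peaks in both replicates.

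Signal at deep intronic summits had a lower median than at the other nuclear summits. The median was 160.4 for the 502 members, with 104.2 at the 10th and 302 at the 90th percentile, against 182 for the other nuclear summits. On the log2 scale the members' median was 0.19 below (-0.19), and within the replicates' own lists the difference was -0.14 in replicate 1 and -0.13 in replicate 2. Intronic summits 1 to 10 kb from a TSS had a median of 179 and those within 1 kb had 211. Summits outside genes and more than 10 kb from a TSS had 161, close to the members. Exonic summits were lower than the members, with a median of 151 and 33.6 at the 10th percentile. Among the 500 nuclear summits of highest signal, 15 (3%) were members, and among those ranked below 4000 the share was 9.41%. The lowest value, 6.92, was at a summit in luna, a Krüppel-like zinc-finger factor.

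Most low values belonged to second summits of an interval. In 83 members the peak interval was shared with another summit, and 42 members were the weaker in such an interval. These 42 had a median signal of 29.9, with a range of 6.92 to 249, and lay a median of 202 bp from the stronger summit (199 to 327 bp). Of the 44 members with a signal under 100, 35 were such weaker summits. Their windows held 46.0% G and C on average, against 29.3% at the other 460 members, whose median signal was 166. The osa site shows the pattern, since a weaker summit of 30.9 lay 222 bp from the one with 654.7. A weaker summit falls in the same replicate peak as its neighbour in many cases, so its replicate values can be those of the neighbour. Weaker summits were not counted in the other classes. Merging overlapping peaks left 460 members, 8.21% of the merged nuclear summits, against 7.75% before merging. Merging thus removed a smaller share of the members than of the other nuclear summits, so weaker summits are no particular trait of this part.

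The replicates placed a peak over nearly all members, but a smaller share than over all nuclear summits passed the threshold in both. The conservative list was itself made from ranks that repeated between replicates, so the coverage, ranks and offsets given here draw on values that chose the members and are descriptions only. In the thresholded lists, 235 members (46.8%) were covered in both replicates, where the share over all nuclear summits was 54.6%. The exact binomial 95% interval was 42.4 to 51.3%, for counting error only. It treats summits as independent, which those sharing a peak are not, and it does not cover variation between libraries. Summits outside genes and more than 10 kb from a TSS were close to the members with 46.3%, as were exonic summits with 45.8%. Leaving out the weaker summits gave 227 of 460 (49.3%). The share over all nuclear summits without their own weaker summits was not computed, so the 49.3% has no like value beside it. In neither thresholded list were 108 members (21.5%), where the share over all nuclear summits was 18.2%, that of the distant summits outside genes 23.9% and that of exonic summits 22.2%. Replicate 2 alone held 113 members (22.5%) and replicate 1 alone 46 (9.16%), against 15.2% and 12.04% of all nuclear summits. Before thresholding, 480 members (95.6%) lay in a ranked peak of both replicates, and 4 in none. Of all 6476 nuclear summits 93.1% lay in both, and 75 in none. Replicate 1 had the higher signal at 389 of the 480 members (81.0%), with a median ratio to replicate 2 of 1.23. Over all nuclear summits in both ranked lists the share was 83.8% and the median ratio 1.33. The lists can differ in scale, so the ratio is no measure of binding. The ranks of the 480 signals were related between replicates with a Spearman's rho of 0.704, a correlation across sites of the same libraries. The replicates' summits lay a median of 24 bp apart. Both values were near those over all nuclear summits, 0.723 and 26 bp.

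**Figure D1:**
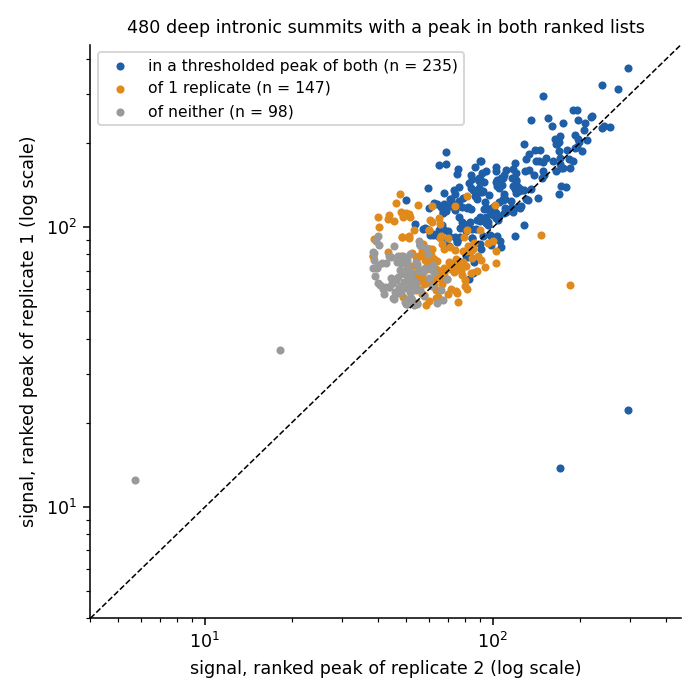
Signal of the ranked peak of replicate 1 (vertical, log scale) against that of replicate 2 (horizontal, log scale) at the 480 deep intronic summits with a peak in both. Each point is a summit, colours show in how many thresholded lists it lies, the dashed line marks equal values, and 389 of the 480 lie above it. The blue points far below the line are weaker summits of osa and cv-2, where a second summit in replicate 1 had a signal of 22.2 or 13.8.

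Deep introns held fewer summits per base than introns closer to a TSS. On the 5 large arms, intron bases within 1 kb of a protein-coding TSS held 130.4 summits per Mb, those at 1 to 5 kb 63.2 and those at 5 to 10 kb 50.8. Among the members, density was 42.9 per Mb at 10 to 15 kb (240 summits), 32.4 at 15 to 20 kb (102), 30.8 at 20 to 30 kb (100) and 22.3 at 30 to 50 kb (51). Beyond 50 kb it was 1.78 per Mb, with 9 summits in 5.07 Mb of intron. Of these 9, 5 were in Sema1a, 3 in hth and 1 in heph, and the farthest was a summit of hth 85889 bp from the nearest TSS. The 10 largest genes without a member held 82.6% of the bases beyond 50 kb. Soft-masked bases, which mark repeats, made up 37.5% of intron beyond 50 kb and 22.4% at 10 to 15 kb. Counting only unmasked summits and unmasked bases, the density was 1.58 per Mb beyond 50 kb and 38.7 at 10 to 15 kb. Median signal showed no such slope beyond 10 kb. It was 161 at 10 to 15 kb, 147 at 15 to 20 kb, 179 at 20 to 30 kb, 154 at 30 to 50 kb and 139.8 beyond.

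**Figure D2:**
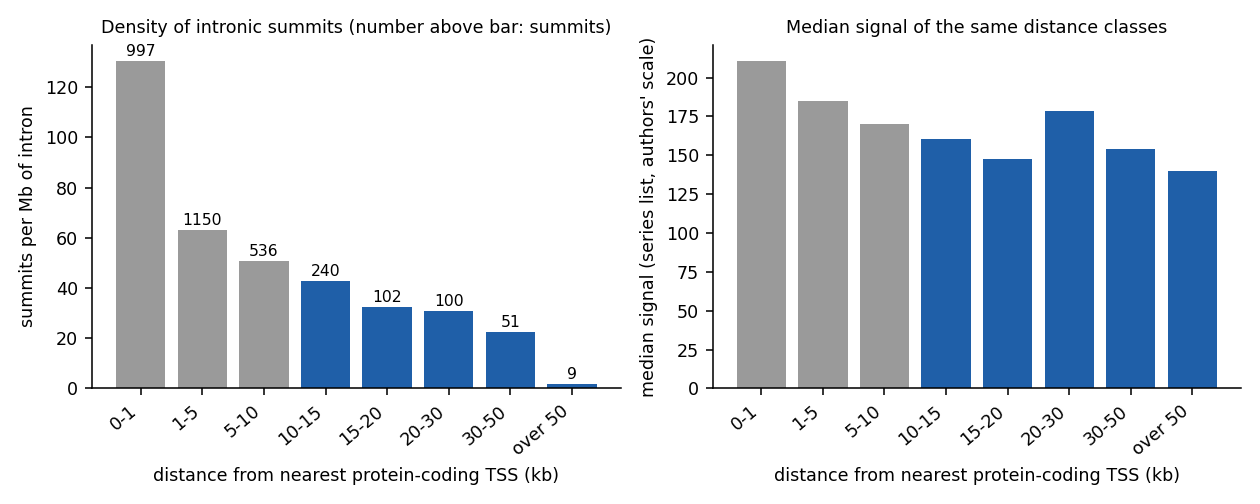
Intronic summits per Mb of intron on the 5 large arms (left) and the median signal of the same classes (right), by distance from the nearest protein-coding TSS in kb. Blue bars are the deep intronic classes, grey bars the introns closer to a TSS, numbers above the bars count summits, and density falls in each class from 130.4 per Mb to 1.78 while the median signal beyond 10 kb stays between 139.8 and 179.

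At the distance threshold, the members just inside were in hbs at 10012 bp with a signal of 254.7, in lobo at 10017 bp with 165.6 and in sdt at 10035 bp with 217.1. Just outside were intronic summits of tna at 9959 bp with 31.2, of Hr4 at 9961 bp with 507.0 and of MESR3 at 9972 bp with 192.9.

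The arms differed in how densely deep introns were occupied. Arm 2L held 102 members, 40.02 per Mb of deep intron, and X held nearly as many at 33.5 per Mb. Arm 3R held the most members, 151, at 23.3 per Mb, while 3L held 81 at 20.5 and 2R held 67 at 19.9. Chromosomes 4 and Y held 0 members. The large genes without a summit, described below, lay on 2R, 3L and 3R.

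Most members lay in long introns. The distance rule itself favours such introns, and intron lengths over all deep intron bases were not computed for comparison. The median intron around a member was 23.9 kb, and 306 members (61.0%) were in introns over 20 kb. The 502 members used 287 introns, and 115 introns with at least 2 members held 330 of them. The median distance to the nearest coding-gene exon was 6769 bp, and 17 members lay within 500 bp of one. In the first intron of at least 1 transcript were 212 members (42.2%, with 43.0% and 41.9% in the lists of replicates 1 and 2), against 23.6% of deep intron bases. Taking the longest transcript of each host only, the number was 136 (27.1%). The nearest TSS belonged to the host itself at 310 members (61.8%), and to another gene at 192.

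Within 500 bp of the start of a noncoding RNA lay 9 members (1.79%), against 4.602% of all nuclear summits and 0.727% of deep intron bases. Other intronic summits had 2.19% at 1 to 10 kb from a TSS and 2.6% within 1 kb. Summits outside genes had 6.94% beyond 10 kb and 7.54% within 10 kb. The 9 members included the strongest osa summit, 172 bp from the start of lncRNA:CR46036, and a summit of DIP-alpha with 374.6, 204 bp from lncRNA:CR34335. Noncoding transcripts spanned 22 members (4.38%), against 2.32% of deep intron bases. Their exons held 4 members, among them the osa summit of 583.95. Within 10000 bp of a noncoding RNA start lay 100 members. If TSSs of all annotated genes counted, transposable elements included, 296 members stayed more than 10000 bp away, and with transposable elements set aside 401 did.

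Of 854 protein-coding genes with any deep intron base on the 5 large arms, 224 held at least 1 member (26.2%). In 111 hosts the number was 1, in 41 it was 2, and in 72 it was 3 or more, or 58 when weaker summits of an interval were left out. By the lists of single replicates, hosts with 3 or more numbered 41 in replicate 1 and 49 in replicate 2. The 12 hosts with most held 20.7% of the members. In 21 hosts the number was 5 or more, and among those tied at 5 Antp was taken as the twelfth for its highest signal. A summit in overlapping genes counts for each of them.

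The gene kirre, which encodes an immunoglobulin protein for myoblast fusion, had the most, 16 summits in a span of 394 kb. Their signals ran from 116 to 277 with a median of 165, none was a weaker summit of an interval, and 11 lay within 50 kb of each other. The strongest had 276.6, with 148.0 in replicate 1 and 119.8 in replicate 2. Scribbler (sbb) had 13 in 79.1 kb, all within 19.3 kb, the largest run of members no more than 5 kb apart. Per 100 kb of deep intron that is 51.0, against 9.996 in kirre. Their signals ranged from 8.62 to 489, and 3 of the 13 were weaker summits.

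Homothorax (hth), a homeodomain partner of Hox proteins, had 11 summits with signals from 109 to 398 and a median of 186. The strongest had 397.7, with 229.5 in replicate 1 and 159.9 in replicate 2. Sema1a had 10, of which 1 stood far above the rest with 470.3, and the other 9 had 187.8 or less. SKIP, which encodes a protein that binds the Shal potassium channel, had 9, again with 1 high summit (389.1) and the others at 189.1 or less. Snoo, a Smad cofactor related to the Sno oncogene, had 8, from 114 to 395.

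Next came ed, which encodes the adhesion protein Echinoid, with 7 summits up to 370.9, and tai, a coactivator of the ecdysone receptor, with 7 up to 249.7. In fz were 6 summits, with 463.7 and 332.3 as the highest. Fur1, a proprotein convertase, had 6 up to 258.7, and luna had 6 up to 170.2. Thresholded peaks of both replicates covered 1 of the 6 in Fur1, 0 of the 6 in luna and 6 of the 16 in kirre. Antp had 5, and all of these also lay in CG46458. Their signals were 465.5, 437.0, 270.6, 262.6 and, for a weaker summit of an interval, 29.0.

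**Figure D3:**
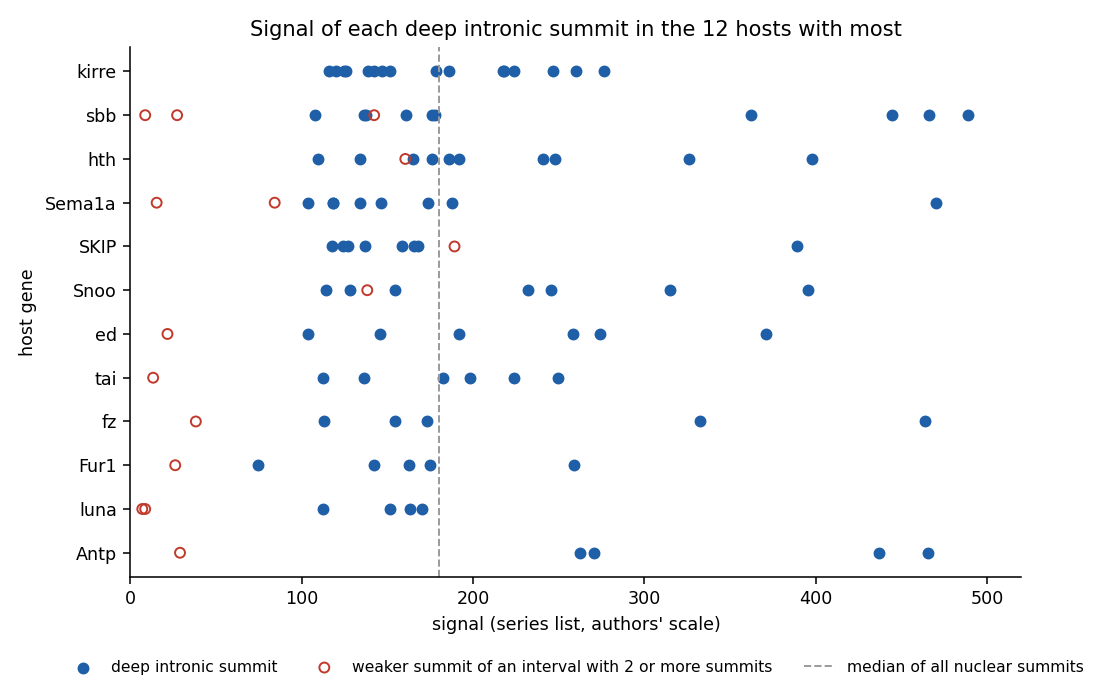
Signal of every deep intronic summit (horizontal, authors' scale) in the 12 host genes with most, in falling order of number from the top. Filled points are summits, open red points are the weaker summits of a shared interval, and the dashed line is the median of all nuclear summits, 180.4. In kirre no summit exceeds 277, while sbb, Sema1a, fz and Antp each reach over 460.

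**Figure D4:**
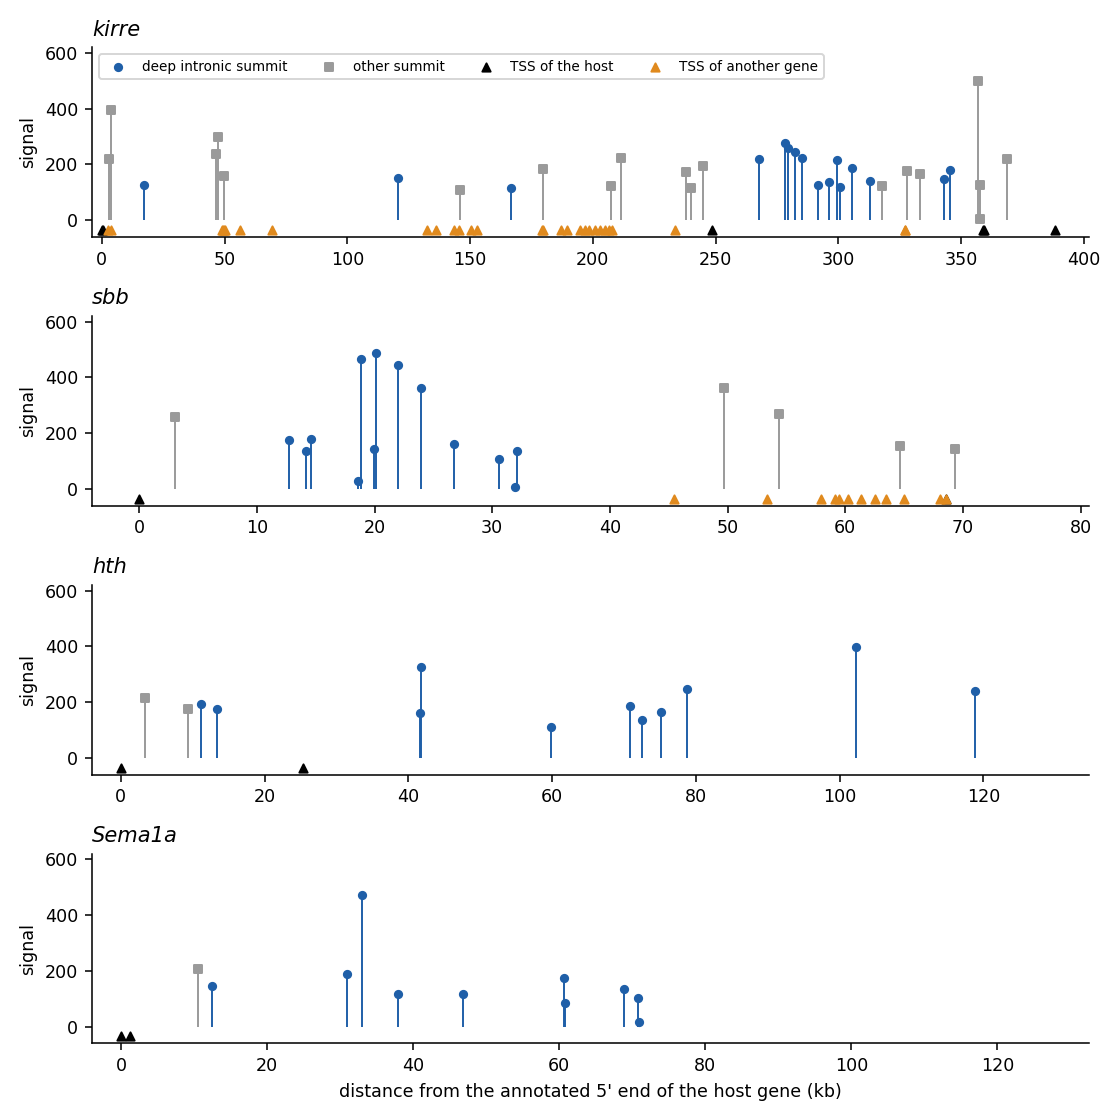
Position of summits along kirre, sbb, hth and Sema1a as distance in kb from the annotated 5′ end of each gene, with signal as height. Blue marks are deep intronic summits (16, 13, 11 and 10), and grey squares are other summits inside the gene (19, 5, 2 and 1). Triangles are protein-coding TSSs of the host (black) or of other genes (orange), and starts of noncoding RNAs are not drawn. The deep intronic sbb summits form 1 group between 12.8 and 32.1 kb. Those of hth and Sema1a are spread over long stretches without a protein-coding TSS.

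Hosts had a median of 20.4 kb of deep intron, and the 630 genes with deep intron but no member had 7.11 kb. Of genes with under 20 kb of deep intron 18.4% were hosts, at 20 to 50 kb 41.1%, at 50 to 100 kb 62.5%, and at 100 kb or more 25% (6 of 24 genes). The genes of most deep intron without a member, picked after their values were seen, were Myo81F with 1949.5 kb, Pzl with 694 kb and lovit with 422 kb. These 3 had 0 summits of any kind in the series list and 0 peaks in the ranked lists of both replicates, and 40.8%, 35.4% and 47.0% of their deep intron was soft-masked. The RNA-binding protein gene bru3 differed from them. It had 231 kb of deep intron, 19.8% of it masked, and no summit in the series list. Over its whole span of 281 kb it had 23 ranked peaks in replicate 1 and 21 in replicate 2. In kirre, with 160.1 kb of deep intron and 28.0% of that masked, there were 173 and 166 ranked peaks over the whole span of 394 kb. That span also holds 29 protein-coding TSSs of other genes. Ranked peaks inside deep intron alone were not counted.

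Of the 224 hosts, 71 (31.7%) had a summit within 500 bp of one of their own TSSs, against 24.3% of the other genes with deep intron and 18.2% of all 13968 protein-coding genes. Among the 12 hosts with most members these were sbb (438.4 at its promoter), Sema1a (170.6), tai (367.9) and Fur1 (544.5).

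Of 82 genes of sequence-specific transcription factors and their cofactors with deep intron, 31 were hosts (37.8%), where the share of all genes with deep intron was 26.2%. They held 97 members, 69.8 per Mb of deep intron, against 25.9 per Mb over all deep introns. The 25.9 is lowered by the 10 largest genes without a member, which hold 4.73 of the 19.3 Mb. Per unmasked Mb the values were 89.1 and 35.7. The median signal of the 97 members was 171. After sbb and Antp, Hr4, a nuclear receptor, had the highest summit with 410.7 (207.1 in replicate 1, 197.6 in replicate 2), and hth had 397.7. The ETS factor gene pnt, an effector of receptor tyrosine kinase signalling, had 5 summits up to 363.9 in 11.9 kb of deep intron, or 42.2 per 100 kb.

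Of 52 genes of signalling receptors, ligands and kinases with deep intron, 23 were hosts (44.2%), with 44 members and 58.6 per Mb. Per unmasked Mb this was 78.1, where all deep introns had 35.7. Highest among these listed genes were fz, then N, the Notch receptor, with 427.1 (205.4 in replicate 1, 211.9 in replicate 2). Then came nkd, the Wnt antagonist Naked cuticle, with 355.4 (168.8 and 170.2), and vn, the EGF receptor ligand Vein, with 344.5 (162.6 and 185.1). The protein kinase gene Drak, with 464.7, was not on the list.

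Of 92 genes of neuronal recognition and adhesion with deep intron, 27 were hosts (29.3%), with 77 members. Density was 24.3 per Mb and the median signal 152. The highest were Sema1a, the netrin gene NetA with 434.2 (222.2 in replicate 1, 207.8 in replicate 2), the immunoglobulin gene DIP-alpha with 374.6 and ed with 370.9.

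Of 40 neurotransmitter and peptide receptor genes with deep intron 3 were hosts (7.5%), with 4 members and 5.37 per Mb, or 7.20 per unmasked Mb where all deep introns had 35.7. They were the serotonin receptor 5-HT2B (151.0), the muscarinic receptor mAChR-B (130.9) and the nicotinic subunit nAChRalpha6 (110.4). All 4 values were under the members' median of 160.4. Of 16 ion channel and transporter genes 3 were hosts (18.8%), namely the calcium channel subunits Ca-beta (247.7) and Ca-alpha1T (126.9) and Teh1 (120.5), with 11.6 members per Mb.

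The remaining groups were small. RNA-binding and splicing regulators had 6 hosts of 18, led by Rbp6 (259.0), Rbfox1 (229.9), pum (226.0) and msi (222.5), and 17.5 members per Mb. Cytoskeletal and scaffold genes had 8 hosts of 28, led by the dystrophin gene Dys (357.3), the actin nucleator gene spir (296.3), pyd, the ZO-1 homologue (248.5), and RhoGEF64C (235.4). Their density was 6.81 per Mb, with the empty introns of Myo81F in the denominator. The 7 groups were made from gene symbols, and counts in groups were not tested.

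Some members lay close together. Another member lay within 5000 bp at 258 (51.4%, with 45.0% and 45.9% in the lists of replicates 1 and 2), and at 198 of 460 (43.0%) once weaker summits were left out. This share was not computed for other summits or for positions drawn from deep introns. It therefore cannot show whether members lie closer together than those do. Among the members with at least the median signal of the list, 29.9% had another of these within 5000 bp. The median distance to the next member was 4.75 kb. Chaining members no more than 5 kb apart gave 346 groups, of which 244 were single, 72 had 2, 18 had 3 and 12 had 4 or more. After sbb the largest were runs of 5 in CG6959, Snoo and kirre. In CG6959 the run spanned 5.52 kb with signals from 14.3 to 441.7. A run of 4 in B4 spanned 2.81 kb, with signals from 143.6 to 306.0 and none under 100.

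Base composition dipped at the summit. Within 50 bp of a member G and C made up 30.7%, against 43.5% in flanks centred 400 bp away and 40.3% of all deep intron bases. The difference of -12.8 percentage points was -13.9 and -12.5 in the lists of replicates 1 and 2 (-13.2 ± 0.98, SD, n = 2), and the summit was the lower at 430 of 502 members (85.7%). Over all nuclear summits the same difference was -12.3, and the summit was the lower at 82.8%. In 20 bp steps the members' profile was lowest 20 bp before the summit, at 29.9%, reached 46.2% at 260 bp after it, and averaged 40.1% at 900 bp and beyond. The longest run of A and T letters in a member's window had a median of 10 bp, against 8 bp in the flanks. Over all nuclear summits these medians were 11 bp and 7 bp.

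**Figure D5:**
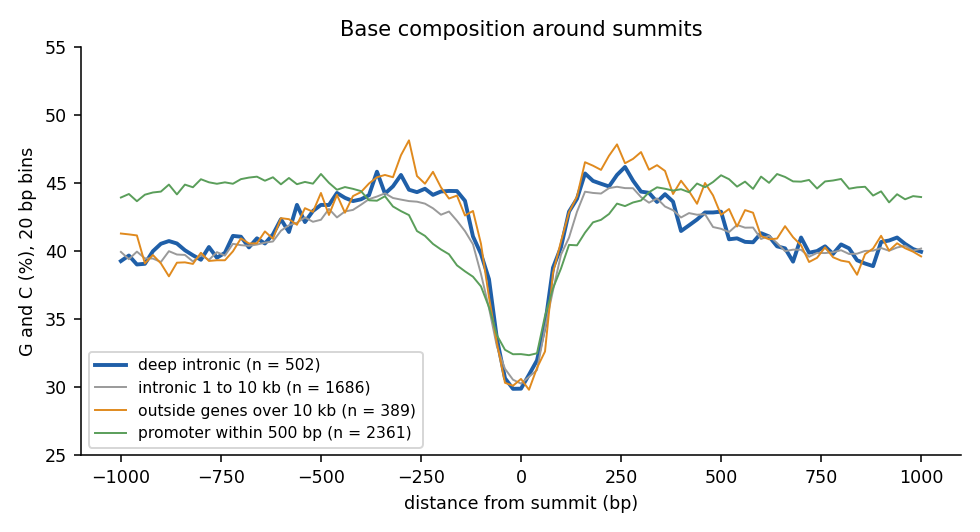
Percent of G and C in 20 bp bins (vertical) by distance from the summit in bp (horizontal), for deep intronic summits (blue, n = 502) and 3 other classes. The members fall to 29.9% near the summit, stand above their distant level on both sides with 46.2% at 260 bp, and return to about 40.1% beyond 900 bp. Introns nearer a TSS and distant sites outside genes trace a like curve, while promoter summits keep high G and C farther out.

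Of 23 short motifs searched on both strands, TATAAA stood out most against the flanks. It was found within 50 bp of 149 members (29.7%, with 28.8% and 29.2% in the lists of replicates 1 and 2), against 9.56% of flank windows and 12.6% of 187500 windows of the same length tiled over deep introns. All nuclear summits had it in 27.7%. Base composition moved with this share. In windows under 25% G and C the letters were in 45.1% of members and 40.8% of tiles, at 25 to 30% in 41.9% and 27.4%, at 30 to 35% in 18% and 19.5%, and at 35 to 40% in 11.9% and 13.01%. At 40% and above the shares were 7.14% and 5.19%. The part of base composition in the difference from the flanks was not tested. A match is a description of letters, not of a bound site.

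The homeodomain core TAATTA was in 12.4% of members, 7.97% of flanks, 7.06% of the tiles and 12.1% of all nuclear summits. The Pho core GCCAT, of a Polycomb recruiter, was in 12.9% of members, 23.4% of flanks, 19.6% of tiles and 11.8% of all nuclear summits. The GAGA factor element GAGAG was in 9.76% of members, 14.5% of flanks, 11.7% of tiles and 8.83% of all nuclear summits. For these 3 motifs the members stood near the share of all summits. The promoter element DRE, TATCGATA, was at 1 member (0.199%), against 1.204% of all nuclear summits and 0.229% of the tiles. Among words of 8 letters ranked on 2L and 3R, the 10 most raised over flanks held A and T only, and 9 of the 10 were also more frequent than in flanks on 3L and X. The word AAATATAT was in 9.09% of members and 1.19% of flanks on 2L and 3R, in 8.79% and 1.10% on 3L and X, and in 2.54% of tiles.

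The summit base was soft-masked at 143 members (28.5%), against 27.1% of all nuclear summits and 27.3% of deep intron bases. An annotated transposable element covered 1 member (0.199%), a summit in the teneurin gene Ten-a with 183.9, and 15 of all 6476 nuclear summits (0.232%). Such elements cover 9.36% of deep intron bases. Peaks in repeats depend on how reads with several matches were treated, which is not given in the sources used here.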

How the data were processed

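The authors deposited ChIP-seq peak lists on assembly dm6, called per replicate and on both replicates with 1 further input file each, per the deposited readme. The names of the aligner and the caller were not given in the sources used here. The signal is the authors' deposited value per peak, of unstated scale and unknown depth. From the 2 ranked series lists, 16 value columns without a label for their replicate were not used. The conservative list held 6501 peaks, 25 of them mitochondrial and left out. Replicate lists held 4949 and 5459 thresholded and 27346 and 31462 ranked nuclear peaks. Genes came from Ensembl release 115 (BDGP 6.54), sequence and soft-masking from RefSeq's genome of that assembly. A summit counted as shared if it lay inside a replicate's peak. Scripts ran in Python 3.11.15 with numpy 2.4.6, scipy 1.17.1 and matplotlib 3.10.9. The classification of 400 positions drawn from the genome was checked against a direct search of the annotation. Base composition and motif counts were checked on sequence with planted letters. The rule, the gene lists and the motifs were chosen with earlier results of these data known. Named were the 12 hosts with most summits (ties by highest signal), the 10 strongest members, up to 4 hosts per gene list by highest signal and 3 members or summits on each side of the distance threshold. Sequence was searched within 50 bp of each summit, and 30 bp of it printed, for arms other than 2R only. Distance, list, TSS set, exon set, annotation, merging, masking, windows and replicates were varied. No test was run, so no p-value is given.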

Additional observations from a re-analysis of the deposited data

How the results depend on the processing

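Of 10 results, each recomputed under the other settings given below, only the signal and the G and C differences could change sign. Neither did. Of 120 recomputed values, 55 stayed within a set range of the main value and 65 moved out of it. The range was a fold change for counts and the binomial interval for the share in both replicates. For the other results it was the SD between the replicates' own lists. RefSeq genes gave the main value for all 10, but 30024 of its 30037 coding exon structures are also in Ensembl, so this says little about the annotation. Leaving out noncoding exons moved 1 of the 10 results. With more than 5000 bp the number of members was 1038 (16.03% of summits), hosts with 3 or more 143, the share in first introns 50.39%, with a neighbour 57.32%, with TATAAA 28.71%, and the log2 signal difference -0.163. With more than 20000 bp these were 160, 2.471%, 21, 28.12%, 46.25%, 25.62% and -0.121, and the G and C difference -14.24 points. Only peaks at or above the median signal left 204 members (6.3%), 17 such hosts, 94.61% in both replicates, 29.9% with a neighbour, 36.27% with TATAAA and a G and C difference of -15.35. The less strict list gave -0.165 for signal, 42.02% in both replicates, 54.26% with a neighbour and 30.14% with TATAAA. TSSs of all genes left 296 members (4.571%), 33 hosts, a signal difference of -0.166, 39.86% in first introns, 48.65% with a neighbour and 28.38% with TATAAA. Setting transposable elements aside there, a choice made after seeing the data, gave 6.192%. Noncoding exons left out gave 50.1% with a neighbour. Merged peaks gave -0.267, -14.31 points, 43.04% and 32.17%, in the order signal, G and C, neighbour, TATAAA. Without masked summits the values were -0.147, -11.77 points, 39.83% and 26.74%, with 40 hosts and 43.18% in first introns. A reciprocal overlap of 50% put 33.86% in both replicates, and the longest transcript 27.09% in first introns. Windows of 100 bp on each side gave -9.91 points and 43.82% with TATAAA, 25 bp gave 16.33%, and flanks 1000 bp away gave -9.361 points. A neighbour within 2000 bp was found at 32.67% and within 10000 bp at 65.14%.

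Leaving out either replicate, that is taking the other's own list, gave 309 to 401 members, 6.244 to 7.346% of summits, signal differences of -0.143 to -0.134, 41 to 49 hosts, 41.9 to 43.04% in first introns, 24.94 to 29.45% masked, -13.88 to -12.5 points of G and C, 44.98 to 45.89% with a neighbour and 28.8 to 29.18% with TATAAA. The lower count of 309 came without replicate 2. No paired analysis was possible because there is 1 group. The causes of these shifts were not tested. Without read counts, a deep intron with no summit cannot be told from one with too little coverage.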
